A study of Mus musculus with 6 samples.

Results

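Purinergic signalling genes were compared between macrophage populations sorted from the cerebrospinal fluid (CSF) in a mouse model of leptomeningeal metastasis. The set holds 10 of the 34652 genes in the expression table, chosen by symbol: the ATP-gated channels P2rx4 and P2rx7, the G protein-coupled nucleotide receptors P2ry6, P2ry12, P2ry13 and P2ry14, the ectonucleotidases Entpd1 and Nt5e, and the adenosine receptors Adora2a and Adora2b. All mice carried the Cx3cr1CreER and mTmG alleles, had been given tamoxifen, and had received LLC-LeptoM cells, a Lewis lung carcinoma derivative that grows in the leptomeninges, 12 days earlier. The Cre is driven from the Cx3cr1 locus, which monocytes also use, and turns the membrane reporter from red to green. Resident macrophages, named dLAMs by the submitters, were the green, Ly6C-negative cells with CD45, CD11b and the macrophage antigen encoded by Adgre1. Monocyte-macrophages were a mixture of GFP-negative cells with that antigen and GFP-negative Ly6C+ cells with little of it. Each population had 3 bulk RNA libraries. No mice without tumor cells, and no age, were given in the labels used here.

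Cells under stress release ATP and other nucleotides, which macrophages sense through P2X channels and P2Y receptors. On the cell surface Entpd1 (CD39) cuts ATP and ADP down to AMP, Nt5e (CD73) turns AMP into adenosine, and adenosine acts on Adora2a and Adora2b, both of which raise cyclic AMP. In the brain, P2ry12 is a classical marker of microglia and guides their processes toward ADP, and P2ry6 responds to UDP and is linked to phagocytosis.

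Values are FPKM, fragment numbers divided by gene length and by library total, so levels of different genes are compared per length. An order of genes therefore depends on the length taken for each, which may differ from that of the transcript expressed. The estimated depth was 1.23e+07 to 1.70e+07 fragments per library. Markers of the sorted cells were present: Csf1r stood at 219 to 276 FPKM in resident and 104 to 147 FPKM in monocyte-macrophage libraries. Of 8 general macrophage markers 3 were higher in the resident libraries, 4 were not called, and Lyz2, a lysozyme gene of monocytes and macrophages, was lower, at 3930 ± 733 against 8570 ± 1770 FPKM (SD, n = 3, adjusted p = 0.043). All 8 border macrophage markers were higher in the resident libraries, but Cd163, Lyve1, Folr2 and Timd4 reached 1 FPKM there alone and had to differ to be tested. Over all 11317 genes tested 19.9% were called higher and 10.6% lower. Itgam, which encodes CD11b of the gate, was at 1.96 to 3.12 FPKM over all 6 libraries. All 8 monocyte markers were lower in the resident libraries but not absent from them. They summed to 843 to 1100 FPKM there and to 4070 to 5530 FPKM in monocyte-macrophage libraries. By log2 fold change the difference was smallest for Ccr2, at 54.5 to 64.3 against 96.7 to 106 FPKM. It was largest for Chil3, at 142 to 285 against 1660 to 3080 FPKM. Markers of other cells differed too. The 14 T cell markers summed to 226 to 280 FPKM in resident libraries and 6.66 to 36.4 in monocyte-macrophage libraries, and 10 dendritic cell markers to 169 to 252 against 23.2 to 38.8. The Y-linked gene Ddx3y was higher in resident library 3 and monocyte-macrophage library 2 (10.1 and 10.6 FPKM) than in the other 4 libraries, so the libraries of a group were not all repeats of 1 RNA. Nothing in the labels ties each library to its own mouse, so p-values cover the spread between these libraries.

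Of the 10 genes, 8 were higher in resident macrophages, Adora2b was lower, and Nt5e did not pass the test at an adjusted p of 0.05. Among all 11317 genes tested 30.5% were called, 19.9% as higher and 10.6% as lower. These were 2249 higher and 1204 lower genes; after median-of-ratios scaling the split was 1798 and 1664, with the calls for the set still at 8 and 1. The median log2 fold change was 1.02 over the 10 genes and 0.06 over all genes tested. P2ry14 reached the filter of 1 FPKM in the resident libraries alone, so it had to differ to be tested; the other 9 reached 1 FPKM in libraries of both groups. The groups did not overlap for 9 of the 10 genes, with resident libraries above for 8 and below for 1. Among all genes tested the groups did not overlap for 46.2%, with resident libraries above for 29.3% and below for 16.9%. In this bulk RNA a smaller number of expressing cells and less RNA per cell cannot be told apart.

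**Figure D1:**
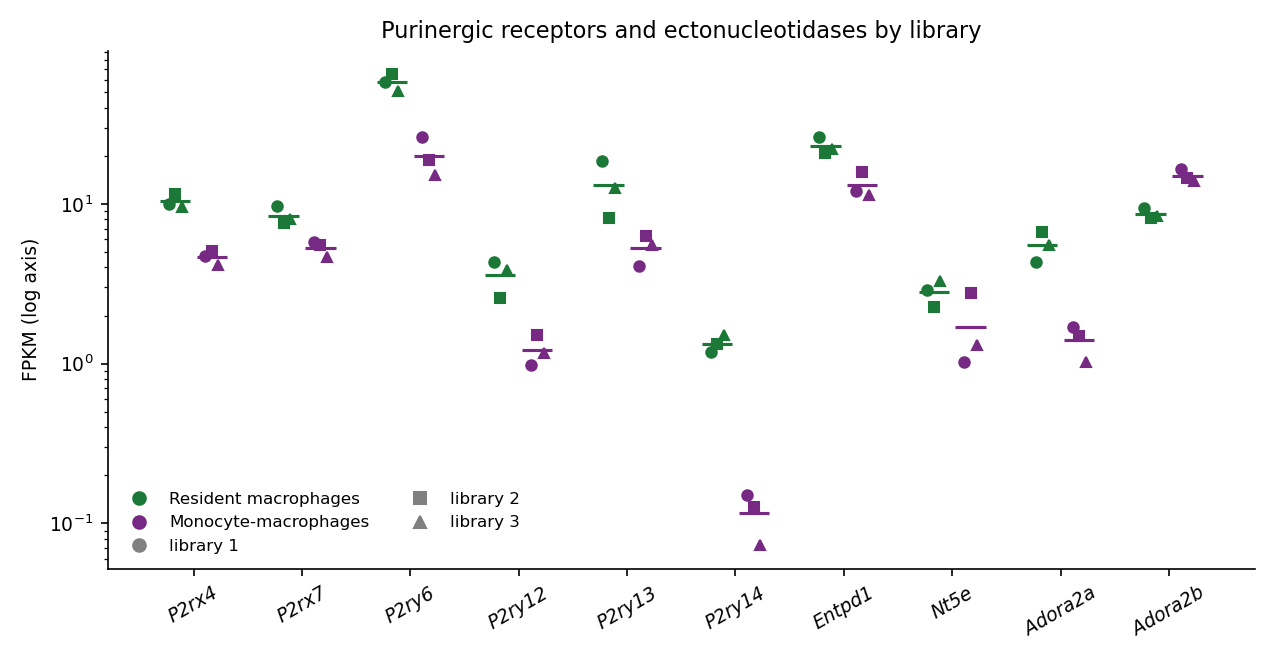
FPKM (log axis) of the 10 genes in each of the 6 libraries; points are libraries, shaped by library number, and lines are group means. Resident libraries lie above monocyte-macrophage libraries for 8 genes, below them for Adora2b, and overlap them for Nt5e.

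P2ry12, P2ry13 and P2ry14 lie side by side on chromosome 3, and the sequence before each start site is shown because these neighbours were higher together, with that of Adora2b, the gene that moved the other way. The windows are the 250 bases upstream of the RefSeq start nearest the annotated gene start, 5′ to 3′ on the gene's strand, on GRCm38.p6: chr3:59262986-59263235 (minus strand) for P2ry12, chr3:59210883-59211132 (minus) for P2ry13, chr3:59153493-59153742 (minus) for P2ry14 and chr11:62248734-62248983 (plus) for Adora2b. Capitals mark matches, on either strand, to the letters of 4 motifs.
P2ry12: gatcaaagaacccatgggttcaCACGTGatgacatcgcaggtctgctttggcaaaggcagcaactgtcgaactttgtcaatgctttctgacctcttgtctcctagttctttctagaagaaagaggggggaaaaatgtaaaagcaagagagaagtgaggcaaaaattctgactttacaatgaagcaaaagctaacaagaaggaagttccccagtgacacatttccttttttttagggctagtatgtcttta
P2ry13: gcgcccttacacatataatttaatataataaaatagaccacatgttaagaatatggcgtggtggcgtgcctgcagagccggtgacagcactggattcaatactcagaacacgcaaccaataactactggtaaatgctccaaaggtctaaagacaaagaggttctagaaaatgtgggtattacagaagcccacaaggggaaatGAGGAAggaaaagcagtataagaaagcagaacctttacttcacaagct
P2ry14: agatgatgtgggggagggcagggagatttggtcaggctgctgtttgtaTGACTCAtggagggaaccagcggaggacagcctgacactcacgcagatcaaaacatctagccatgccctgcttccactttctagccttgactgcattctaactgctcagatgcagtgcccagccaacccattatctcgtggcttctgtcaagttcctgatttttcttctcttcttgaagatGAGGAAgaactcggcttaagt
Adora2b: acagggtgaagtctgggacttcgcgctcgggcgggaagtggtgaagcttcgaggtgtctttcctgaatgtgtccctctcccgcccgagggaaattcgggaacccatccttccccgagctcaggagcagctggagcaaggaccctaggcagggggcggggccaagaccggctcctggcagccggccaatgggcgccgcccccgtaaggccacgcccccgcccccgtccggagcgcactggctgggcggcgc
The motifs were GAGGAA (the core bound by PU.1, the macrophage lineage factor), TGANTCA (AP-1), ACGTG (the core of the hypoxia response element) and TGACGTCA (the cyclic AMP response element). P2ry13 and P2ry14 each held 1 GAGGAA, which 23.3% of the 32851 windows of that length in the table also held. P2ry14 had 1 TGANTCA as well, found in 6.7% of windows. P2ry12 had ACGTG on both strands in 1 palindrome, with 16.6% of windows holding these letters, and its run has no GAGGAA. The Adora2b window had no match to any of the 4 motifs and a GC content of 69.6%, against 41.6% for both P2ry12 and P2ry13, 50.0% for P2ry14 and a median of 52.4%. Windows were matched by symbol for 8 of the 10 genes, all but P2ry6 and Adora2a. Of the remaining windows at annotated gene starts, that of P2rx7 held 1 TGANTCA and those of P2rx4, Entpd1 and Nt5e held none of the motifs. At further RefSeq starts inside the genes, an Entpd1 window (chr19:40659520-40659769) held 2 GAGGAA, 3 windows of P2ry14, 2 of which overlap, held 1 GAGGAA each and 1 of them a TGANTCA, and a P2rx7 window held none. Letter matches describe sequence and are not binding sites.

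P2ry6, the UDP receptor, was the most abundant of the 10 genes in both populations by mean level. It stood at 57.7, 64.9 and 50.8 FPKM in resident libraries 1 to 3 and at 26.1, 18.9 and 15.2 FPKM in monocyte-macrophage libraries 1 to 3. Every resident library was above every monocyte-macrophage library. The ratio of means was 2.88, from 57.8 ± 7.05 against 20.1 ± 5.54 FPKM (SD, n = 3). The log2 fold change, taken on log2(FPKM + 1) as resident less monocyte-macrophage, was 1.51 (SE 0.19, adjusted p = 0.0010). P2ry6 lies on chromosome 7 (mm10, 100937630 to 100974649, minus strand) beside P2ry2, a receptor for ATP and UTP. P2ry2 had a mean close to equal in both groups, with a log2 fold change of 0.02 (95% interval -0.40 to 0.44, adjusted p = 0.95).

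The receptors P2ry12 and P2ry13, both of which bind ADP and signal through inhibitory G proteins, were higher in resident macrophages. P2ry12 was at 4.31, 2.59 and 3.85 FPKM in resident libraries 1 to 3 and at 0.974, 1.52 and 1.17 FPKM in the monocyte-macrophage libraries. The groups did not overlap, and the lowest value, in monocyte-macrophage library 1, rested on an estimated 34 fragments. Its log2 fold change was 1.03 (SE 0.18, adjusted p = 0.0046), and the ratio of mean FPKM was 2.94. P2ry13 was at 18.6, 8.20 and 12.6 FPKM against 4.10, 6.27 and 5.51 FPKM. Resident library 1 was well above resident library 2, which was itself close to the highest monocyte-macrophage library. The log2 fold change of P2ry13 was 1.11 (SE 0.27, adjusted p = 0.018). Without resident library 3 its adjusted p was 0.055, and it was 0.079 in the 4 libraries low in Ddx3y. The ratio of P2ry13 to P2ry12 was 3.17 to 4.32 in resident and 4.13 to 4.71 in monocyte-macrophage libraries, so their balance overlapped between the groups.

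P2ry14, the receptor for UDP-glucose and other UDP-sugars, was low in FPKM in both populations. It was at 1.18, 1.32 and 1.5 FPKM in the resident libraries and at 0.151, 0.126 and 0.0728 FPKM in the monocyte-macrophage libraries, the latter from an estimated 23, 20 and 14 fragments. The groups lay far apart, with a ratio of mean FPKM of 11.4. On the log2(FPKM + 1) scale the difference was 1.06 (SE 0.13, adjusted p = 7.3e-04). That scale compresses low levels: with a pseudocount of 0.1 the log2 fold change of P2ry14 was 2.74, and after quantile normalization it was 0.55.

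The locus that holds these receptors lies inside Med12l, a Mediator subunit gene on the opposite strand (chromosome 3, 59005825 to 59318682). P2ry14 spans 59113855 to 59153618, P2ry13 59207892 to 59210882 and P2ry12 59216272 to 59262871, all on the minus strand. Med12l was below 1 FPKM in every library, at 0.597, 0.526 and 0.741 FPKM against 0.157, 0.520 and 0.130, and was not tested. The strand setting of the counting is not given in the sources used here, so fragments of Med12l and of the receptors may not be fully separated; how far this touches each receptor was not tested. Gpr171, another G protein-coupled receptor gene of the cluster, known from T cells, was at 22.7, 16.8 and 19.0 FPKM against 2.23, 1.73 and 3.06, a log2 fold change of 2.63 (SE 0.18, adjusted p = 7.5e-05). By mean FPKM in resident macrophages Gpr171 was highest of these genes, at 19.5, and P2ry13 followed at 13.1.

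**Figure D2:**
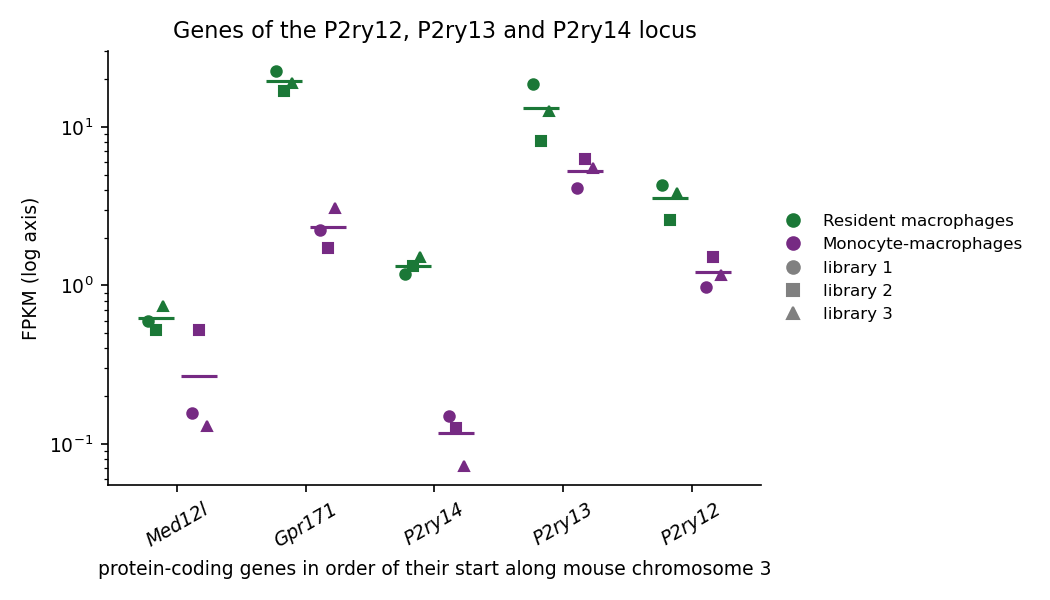
FPKM (log axis) of 5 protein-coding genes in the Med12l interval that reached 0.1 FPKM in a library, ordered by start along chromosome 3, with points for libraries and lines for group means. Med12l, Gpr171, P2ry14, P2ry13 and P2ry12 are higher in every resident library than in any monocyte-macrophage library.

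Both P2X channels of the set were higher in resident macrophages. P2rx4, an ATP-gated cation channel found on the surface and in lysosomes, was at 9.98, 11.6 and 9.57 FPKM in the resident libraries and at 4.71, 5.06 and 4.16 FPKM in the monocyte-macrophage libraries. Each resident value was well clear of the highest monocyte-macrophage value. The log2 fold change was 1.01 (SE 0.12, adjusted p = 7.6e-04) and the ratio of mean FPKM 2.24. P2rx7, the channel that opens at high ATP and triggers inflammasome assembly, was at 9.65, 7.63 and 8.0 FPKM against 5.75, 5.50 and 4.68. The groups did not overlap, but the gap was narrower, with a log2 fold change of 0.58 (SE 0.13, adjusted p = 0.013). The adjusted p of P2rx7 was 0.054 without resident library 1 and 0.061 in the 4 libraries low in Ddx3y. P2rx7 and P2rx4 are neighbours on chromosome 5, with 16.1 kb between them (122643911 to 122691432 and 122707544 to 122729738, both on the plus strand). Camkk2, a kinase gene that lies 1.4 kb beyond P2rx4 on the opposite strand, went the other way and fell by 1.19 (log2 fold change, adjusted p = 0.0010). The P2rx4 to P2rx7 ratio of FPKM was 1.03, 1.52 and 1.20 in resident libraries and 0.819, 0.920 and 0.890 in monocyte-macrophage libraries. These ratios did not overlap; the exact permutation test over 3 against 3 libraries gave p = 0.10 (two-sided), the smallest it can give.

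The 6 nucleotide receptors of the set summed to 101, 96.3 and 86.3 FPKM in the resident libraries and to 41.8, 37.4 and 30.8 FPKM in the monocyte-macrophage libraries. P2ry6 made up the largest share of that sum in each library, 56.8% to 67.4% in resident and 49.4% to 62.5% in monocyte-macrophage libraries, with overlap between the groups. The share of P2rx7 was smaller in resident libraries, at 7.93% to 9.51% against 13.8% to 15.2%. P2ry14 went from 0.236% to 0.361% of the sum in monocyte-macrophages to 1.16% to 1.74% in resident macrophages. For P2rx7 and P2ry14 the exact permutation p was 0.10 (two-sided, n = 3 per group), the floor of this design, and for the shares of P2rx4, P2ry6, P2ry12 and P2ry13 it was 0.20, 0.30, 0.50 and 0.70.

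Of the ectonucleotidases, Entpd1 was higher in resident macrophages and Nt5e was not distinguished between the groups. Entpd1, the enzyme that takes ATP and ADP down to AMP, was at 26.4, 21.0 and 22.0 FPKM in the resident libraries and at 12, 15.8 and 11.4 FPKM in the monocyte-macrophage libraries. All resident libraries lay above all monocyte-macrophage libraries, of which library 2 was highest. The log2 fold change was 0.79 (SE 0.15, adjusted p = 0.0062), with a ratio of mean FPKM of 1.77. Nt5e, which makes adenosine from AMP, was at 2.91, 2.25 and 3.30 FPKM against 1.03, 2.77 and 1.30. Monocyte-macrophage library 2 lay within the resident range, and the other 2 lay below it. The log2 fold change of Nt5e was 0.54 (SE 0.24, 95% interval -0.02 to 1.11, adjusted p = 0.13). This result turned on that library: without it the log2 fold change was 0.81 with an adjusted p of 0.014. A term for Y-linked RNA, which is higher in the same library and in resident library 3, gave 0.54 with an adjusted p of 0.046. In the 4 libraries low in Ddx3y the log2 fold change of Nt5e was 0.72 (adjusted p = 0.047). The ratio of Entpd1 to Nt5e was 6.67 to 9.30 in resident and 5.71 to 11.6 in monocyte-macrophage libraries. Entpd1 lies on chromosome 19 (40612366 to 40741602, plus strand) and Nt5e on chromosome 9 (88327197 to 88372092, plus strand).

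The adenosine receptors moved in opposite directions. Adora2a, the high-affinity receptor that dampens inflammatory responses, was at 4.32, 6.67 and 5.53 FPKM in resident libraries and at 1.70, 1.49 and 1.02 FPKM in monocyte-macrophage libraries. The groups were well separated, with a ratio of mean FPKM of 3.93 and a log2 fold change of 1.43 (SE 0.18, adjusted p = 9.5e-04). Adora2b, the low-affinity receptor that needs more adenosine, was at 9.38, 8.19 and 8.38 FPKM against 16.6, 14.5 and 14. Every monocyte-macrophage library was above every resident library, and Adora2b fell by 0.73 (log2 fold change, SE 0.11, adjusted p = 0.0021) in resident macrophages. Adora2b was higher in FPKM than Adora2a in each of the 6 libraries. The ratio of Adora2b to Adora2a was 2.17, 1.23 and 1.52 in resident libraries and 9.78, 9.72 and 13.7 in monocyte-macrophage libraries (exact permutation p = 0.10, two-sided). Their sum differed far less, at 13.7, 14.9 and 13.9 FPKM against 18.3, 15.9 and 15. It was still lower in every resident library than in any monocyte-macrophage library (exact permutation p = 0.10, two-sided). Adora2a lies on chromosome 10 (75316877 to 75334784, plus strand) and Adora2b on chromosome 11 (62248984 to 62266453, plus strand).

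**Figure D3:**
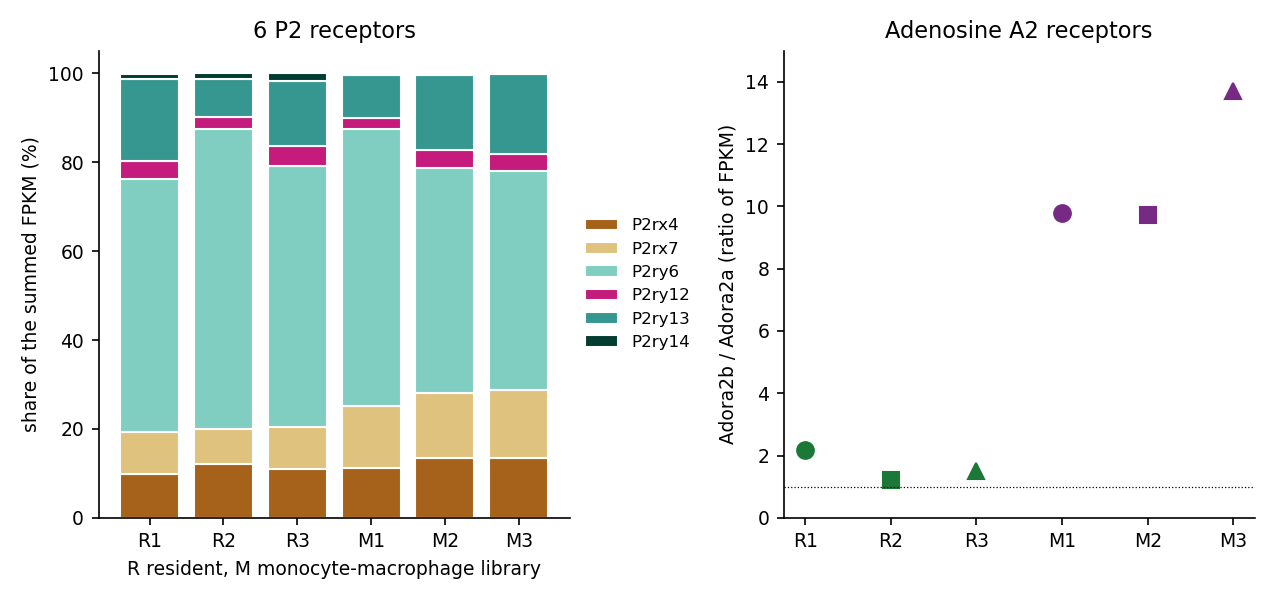
Left, the share (%) of each of the 6 P2 receptors in their summed FPKM, by library (R resident, M monocyte-macrophage); right, the ratio of Adora2b to Adora2a FPKM in the same libraries, with a dotted line at 1. P2ry6 takes the largest share in each library, and the Adora2b to Adora2a ratio is 1.23 to 2.17 in resident and 9.72 to 13.7 in monocyte-macrophage libraries.

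By mean FPKM the order in resident macrophages was P2ry6, Entpd1, P2ry13, P2rx4, Adora2b, P2rx7, Adora2a, P2ry12, Nt5e and P2ry14. Within that order P2ry13 and P2rx4, Adora2b and P2rx7, and P2ry12 and Nt5e overlapped between libraries. In monocyte-macrophages the order was P2ry6, Adora2b, Entpd1, P2rx7, P2ry13, P2rx4, Nt5e, Adora2a, P2ry12 and P2ry14. P2ry6, Adora2b and Entpd1 overlapped there with their neighbours in the order, as did P2rx7, P2ry13 and P2rx4, and Nt5e, Adora2a and P2ry12. Both orders rest on gene length. P2ry14, with 11059 exon bases, had an estimated 193, 179 and 206 fragments in resident libraries 1 to 3. P2ry12, with 2546 exon bases, had 163, 81 and 122.

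**Figure D4:**
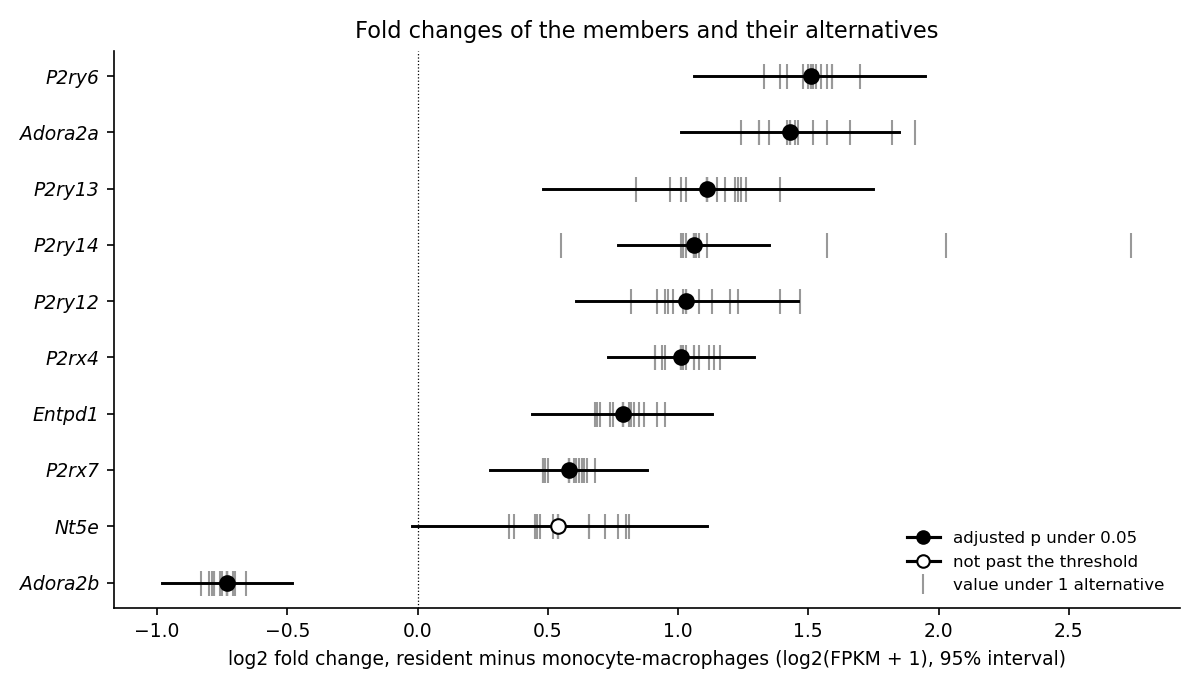
Log2 fold change (resident minus monocyte-macrophages, log2(FPKM + 1)) of each gene with its 95% interval; filled circles passed the test, the open circle did not, and grey ticks are the values under each alternative analysis. The intervals of 8 genes lie above 0, that of Adora2b lies below 0, that of Nt5e spans it, and the ticks of P2ry14 reach from 0.55 to 2.74.

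Several of these genes are also used by cells whose markers were higher in the resident libraries, and those levels are set beside them here. P2ry12 is a microglia marker, and all 8 microglia markers, itself among them, were higher, summing to 451, 292 and 259 FPKM in resident libraries 1 to 3 and to 62.4 to 85.6 FPKM in monocyte-macrophages. Of these Sall1, Gpr34, Siglech and Fcrls reached 1 FPKM in resident libraries alone, so they had to differ to be tested. Resident library 1 was the highest of the resident libraries in that sum and also in P2ry12, P2ry13, P2rx7, Entpd1 and Adora2b, the last being lower in resident macrophages. The other 5 genes of the set were highest in resident library 2 or 3. P2ry12 is also a platelet receptor; of 7 platelet markers 1 was tested and did not pass, and their sum was 2.36 to 4.19 FPKM against 0.772 to 3.81.

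Entpd1, Nt5e, P2rx7 and Adora2a are well known from T cells, above all regulatory T cells. Each of the 14 T cell markers was higher, 5 of them (Cd247, Cd28, Cd8a, Foxp3 and Ctla4) tested through the resident libraries alone, where they reached 1 FPKM. The regulatory T cell factor gene Foxp3 was at 5.57, 6.40 and 3.77 FPKM against 0, 0.202 and 0.0876. Among monocyte-macrophage libraries the T cell sum was 6.66, 36.4 and 28.1 FPKM in libraries 1 to 3. Nt5e and Entpd1 were highest in library 2 of these, while Adora2a and P2rx7 were highest in library 1, which had the least T cell RNA. In resident libraries 1 to 3 the T cell sum was 280, 226 and 247 FPKM. P2rx7 and Entpd1 were highest in resident library 1, Adora2a in resident library 2 and Nt5e in resident library 3. Dendritic cell markers, which are shared in part with activated macrophages, were higher for 9 of 10, Flt3 being the exception, and 7 of these 9 reached 1 FPKM in resident libraries alone. The same held for 2 of the 3 mast cell, 2 of the 4 B cell and 1 of the 2 natural killer cell markers called next, so these counts were in part set by the filter. Of 7 mast cell and basophil markers 3 were tested and higher, with sums of 21.6 to 44.4 FPKM against 0.708 to 1.94, and Cpa3, Mcpt4 and Fcer1a were listed at 0 in each monocyte-macrophage library. Of 6 B cell markers 4 were tested and higher, as were 2 of 6 natural killer cell markers. The 7 fibroblast markers summed to 3.91 to 5.97 against 0.327 to 1.10 FPKM, and 6 carcinoma markers, for Nt5e is also made by carcinoma cells, to 27.0 to 31.8 against 1.99 to 3.18 FPKM, most of it Cdh1. Of these 6 carcinoma markers 3 were tested, Cdh1, Krt18 and Epcam, and all were higher. Krt18 and Epcam reached 1 FPKM in resident libraries alone. Epcam was at 5.86, 4.7 and 7.5 FPKM against 0.0716, 0.279 and 0.144. Krt19 was listed at 0 in 5 of the 6 libraries. Of 6 endothelial markers 2 were tested and 1 was higher, which reached 1 FPKM in resident libraries alone. Neutrophil markers went the other way in 4 of 8, with sums of 1240 to 1600 FPKM in resident and 1970 to 11500 FPKM in monocyte-macrophage libraries. The part of such cells in the levels of the purinergic genes was not tested.

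**Figure D5:**
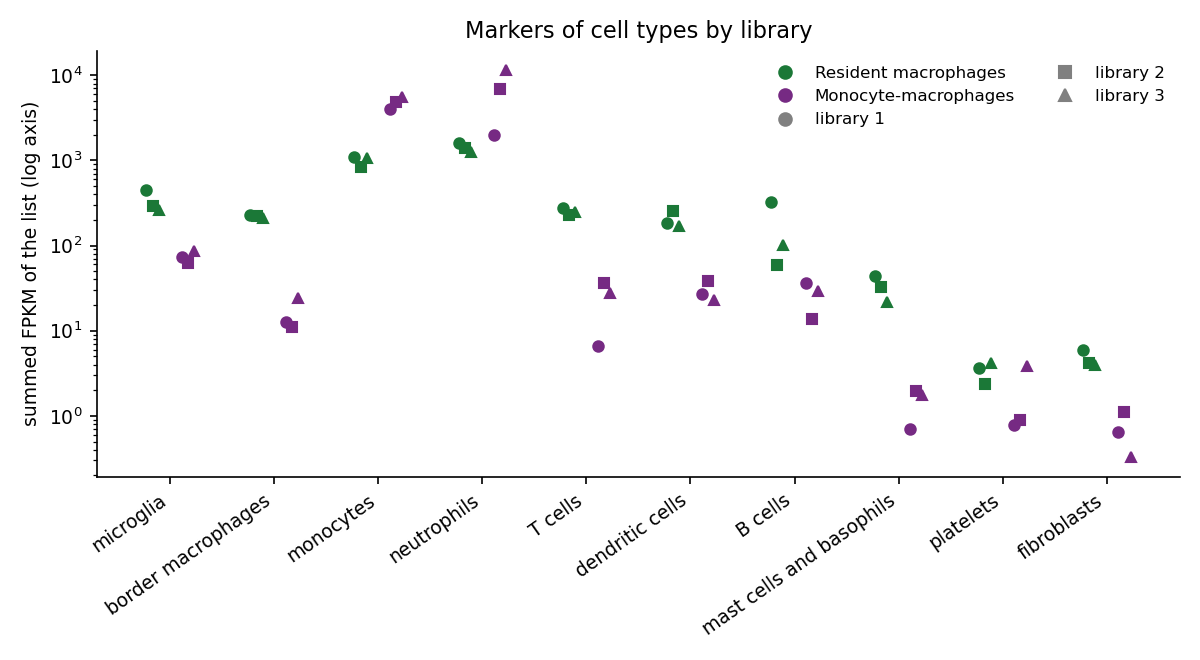
Summed FPKM (log axis) of marker lists in each library, shaped by library number. Microglia, border macrophage, T cell, dendritic cell, B cell, mast cell and fibroblast lists are higher in all 3 resident libraries, monocyte and neutrophil lists in all 3 monocyte-macrophage libraries, and platelet markers overlap.

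The rest of the pathway moved less evenly. Of 69 further genes with values 51 were tested, and 12 were higher and 8 lower (39.2% called, against 30.5% of all genes), with a median log2 fold change of 0.02. P2rx1, P2ry10, Enpp1, Slc29a2, Gja1 and Adcy6 reached 1 FPKM in libraries of 1 group alone, so they had to differ to be tested; without these 6 genes 14 of 45 were called. Among other nucleotide receptors, P2ry10, a lymphocyte receptor grouped with the P2Y family by sequence, stood at 10.8, 10.8 and 12.1 FPKM against 0.391, 0.811 and 0.437, a log2 fold change of 2.99 (adjusted p = 2.1e-05). P2ry1, a further ADP receptor, ran opposite to P2ry12 and P2ry13. It was at 1.36, 1.58 and 1.27 FPKM in resident and 5.12, 4.96 and 5.16 FPKM in monocyte-macrophage libraries. P2ry1 fell by 1.34 (log2 fold change, adjusted p = 2.0e-04). The ratio of P2ry1 to P2ry12 was 0.315 to 0.612 in resident and 3.27 to 5.26 in monocyte-macrophage libraries. P2rx1, an ATP channel of platelets and myeloid cells, was the tested member of the other P2X genes and fell by 0.71 (adjusted p = 0.0076). In the 4 libraries low in Ddx3y 9 of the 51 pathway genes were called higher and 3 lower. Of the genes named here P2rx1, Cd38, Entpd7, Adcy7, Il18 and Lrrc8c lost their calls there, with adjusted p from 0.069 to 0.18. P2rx5, singled out after its values were seen, was under the filter, at 0.93, 2.04 and 1.65 FPKM in resident libraries and 0.115, 0 and 0 in monocyte-macrophages. Adora3, the inhibitory adenosine receptor, was at 1.67, 1.32 and 1.89 FPKM against 1.63, 2.49 and 1.60, with a log2 fold change of -0.14 (adjusted p = 0.58).

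Of 9 other ectoenzymes 4 were tested, 2 of them higher and none lower. Enpp1, which cuts ATP to AMP and also degrades cyclic GMP-AMP, was at 1.63, 1.24 and 1.4 FPKM against 0.0712, 0.0636 and 0.0477 (log2 fold change 1.19, adjusted p = 4.6e-04). All 3 resident libraries lay far above the rest. Cd38, an ectoenzyme that consumes NAD, was at 15.7, 11.7 and 17.7 FPKM against 1.71, 5.19 and 7.39 (log2 fold change 1.61, adjusted p = 0.017). Its adjusted p was 0.061 without resident library 1 or resident library 3. Its relative Bst1 did not pass, at 13.1 ± 1.80 against 18.7 ± 4.42 FPKM (SD, n = 3), but was called lower without monocyte-macrophage library 1 (adjusted p = 0.013). Among the intracellular diphosphatases 1 of 4 tested, Entpd7, was lower (adjusted p = 0.011, or 0.053 without resident library 2), and Cant1, the most abundant, had a log2 fold change of 0.34 (adjusted p = 0.076).

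Of 12 tested genes of adenosine uptake and metabolism 4 were higher and 2 lower. Dpp4 (CD26), which is also found on T cells and dendritic cells, was higher by 2.22 (log2 fold change, adjusted p = 1.3e-04). The lysosomal nucleoside transporter gene Slc29a3 was higher by 1.0 (log2 fold change, adjusted p = 7.4e-04). Ampd3, which deaminates AMP inside the cell, fell by 1.57 (adjusted p = 4.5e-05), from 16.9 ± 0.754 to 5.03 ± 0.131 FPKM (SD, n = 3). Pnp, the most abundant of this list, did not pass (log2 fold change -0.36, adjusted p = 0.13).

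Of the 26 different genes tested upstream and downstream of the receptors 8 were called, a share of 30.8% that is close to the 30.5% of all genes. Of 8 tested genes of nucleotide release 2 were higher and 2 lower; the channel gene Panx1 was not among them (log2 fold change -0.04, adjusted p = 0.83), and Lrrc8c, the most abundant, was higher by 0.31 (adjusted p = 0.049), a call lost without any 1 of the 6 libraries (0.059 to 0.15). Of the 9 genes downstream of P2rx7, 1 was higher (Kcnk6, log2 fold change 0.57, adjusted p = 0.0034) and 1 lower (Il18, -0.50, adjusted p = 0.041). The call of Il18 was lost without any 1 library other than resident library 1 (adjusted p 0.062 to 0.12). The inflammasome sensor gene Nlrp3 was at 21.9, 28.5 and 35.9 FPKM against 28.1, 49.3 and 22.1, and Il1b at 150, 101 and 206 against 125, 269 and 105 FPKM, with overlap in both. Of 10 G protein and adenylyl cyclase genes 2 were higher. Adcy6, which makes cyclic AMP, was at 2.33, 5.89 and 3.48 FPKM in resident libraries and listed at 0, 0 and 0.0195 in monocyte-macrophages (log2 fold change 2.22, adjusted p = 6.0e-04), and Adcy7 was the other. Gnai2, the inhibitory subunit used by P2ry12 and P2ry13, had a log2 fold change of -0.12 (adjusted p = 0.49).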

How the data were processed

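The authors deposited 1 table of FPKM with a column for each library. Per the submitters' processing notes the tools were FastQC, HISAT2 and featureCounts, on mm10; their versions, the annotation and the strand setting were not given in the sources used here. FPKM are not counts, so values were taken as log2(FPKM + 1) and fitted with limma 3.58.1 (R 4.3.3), with a group term and a mean-variance trend, over the 11317 genes at 1 FPKM or more in at least 3 of 6 libraries. P-values were adjusted by Benjamini-Hochberg over all of these, with a threshold of 0.05. On simulated data with 11317 genes, 100 were changed by 1 and 100 by 2 on the log2 scale. Of these 69% and 89% were recovered, and 4.2% of the genes called were false. Far fewer genes were changed there than were called here, so these rates do not carry over to this comparison. Depth came from the step of 1 read in low values and GENCODE M21 exon lengths on mm10, which also gave coordinates; 40.4% to 44.1% of values under 20 reads were whole within 0.02, so counts were not recovered. Fragment numbers are such estimates. Folds are ratios of mean FPKM. Plots used matplotlib 3.10.9. Members, gene lists, motifs and tests were chosen with earlier results of these data known. Pathway genes were named if called with a log2 fold change of 1 or more in size, or if most abundant in their list; a few others were picked after their values were seen. Alternatives were pseudocount, filter, scaling, trend, replicate block, a Y-linked term and leaving out libraries. Some genes are not reported here and were left out of the lists and figures.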

Additional observations from a re-analysis of the deposited data

How the results depend on the processing

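Directions of all 10 genes held in each alternative that could be computed, and 159 of 166 single-gene values kept their side of the threshold. The exceptions are P2rx7, P2ry13 and Nt5e, as given above; their causes were not tested. With a filter of 5 FPKM, which leaves P2ry12, P2ry14, Nt5e and Adora2a untested, 5 of the set were higher, as were 7 other pathway genes and 1247 of all genes. In the 4 libraries low in Ddx3y, a Y-linked gene, 1480 genes were higher and 780 lower, and 3 pathway genes were lower. Leaving out 1 library at a time gave 7 to 9 higher genes of the set and 1 lower, 10 to 12 pathway genes higher and 5 to 10 lower, and 1590 to 2096 genes higher and 780 to 1220 lower overall; the lowest counts of lower genes, 5 and 780, came without resident library 2. Of all called genes 65.1% were higher as deposited, 72.3% with no filter, 51.9% after median-of-ratios scaling and 51.4% after quantile normalization; the latter moved the median of all genes by -0.11. Libraries with the same number did not all deviate together (r 0.189, -0.147 and -0.0887 over genes for numbers 1, 2 and 3). Deviations from a mean of 3 libraries are tied to each other, so these values cannot exclude a pairing. The labels do not say whether libraries of the same number belong together. With the replicate block 8 genes of the set were higher and 1 lower, and 1860 and 999 of all genes. Of the resident libraries only library 1 correlated best with its own number; the highest r, 0.386, was between resident library 3 and monocyte-macrophage library 2, both high in Ddx3y. Depth limits P2ry14 and P2ry12 most, with estimated fragments down to 14 and 34.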
